A study of Homo sapiens with 4 samples.

Results

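The genes of P-TEFb and of the 7SK complex that holds it in check were followed in Jurkat cells, a human T-cell acute lymphoblastic leukaemia line, with and without GNE987, a bifunctional degrader that brings BET bromodomain proteins to the ubiquitin ligase VHL. The set is CDK9, CCNT1, CCNT2, HEXIM1, HEXIM2, LARP7 and MEPCE, taken by name from the deposited table. All 7 had a row among the 26733 genes, and all 7 were among the 15910 that passed the filter on low counts. The treated group was 2 libraries of cells given GNE987 at a labelled 25 nmol, with no volume stated, for 24 h. The control group was 2 libraries of Jurkat cells labelled as not treated, and no vehicle is named for them. Polyadenylated RNA was sequenced, and the proteins that GNE987 degrades were not measured here. The labels do not say whether replicates of this 1 cell line were separate cultures, so the p-values cover the spread between these libraries alone, and that spread may be technical.

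P-TEFb is the kinase CDK9 bound to a cyclin T, and it releases paused RNA polymerase II by phosphorylating the polymerase tail and the pausing factors. Much of it is kept inactive in a particle built on the 7SK RNA, where MEPCE caps the RNA, LARP7 binds and stabilises it, and HEXIM1 or HEXIM2 inhibits the kinase. BET proteins bind active P-TEFb and bring it to acetylated chromatin, and a rise of HEXIM1 message is widely used as a readout of BET inhibition.

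Total counts were between 16041022 and 18938465 per library. The 2 untreated libraries differed more (chi-square per degree of freedom 34.0) than the 2 treated ones (4.55). Among 6325 genes that were at least 10 CPM in untreated replicate 1 and at least 1.5-fold away from it with GNE987, untreated replicate 2 lay at a median of 20.3% of the way to the treated mean. Untreated replicate 1 enters both sides of that position, and results without untreated replicate 2 are given below. Of 9 T-cell markers 9 had reads, from 1435 to 2616 CPM in sum, and 7 were lower and 1 higher with GNE987. CD2 was the lowest of them, at 0.263 and 0.58 CPM with GNE987 and at 7.90 and 6.22 CPM without. Of 5 myeloid markers 3 were higher and 0 lower. Summed, they were at 142 and 147 CPM in the treated libraries, and among the controls at 0.539 CPM (replicate 1) and 29.7 CPM (replicate 2). None of these myeloid markers was at 0 in every library, and their part in the results was not tested.

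The stretches just upstream of the annotated starts are shown for HEXIM1 and HEXIM2, neighbouring paralogs of which 1 passed the test, and for CDK9, the kinase they inhibit. They are read 5′ to 3′ on the gene's strand from RefSeq (GRCh38.p14), with matches to the searched motifs in capitals, and bases that GENCODE 29 annotates as untranslated are left out.
HEXIM1: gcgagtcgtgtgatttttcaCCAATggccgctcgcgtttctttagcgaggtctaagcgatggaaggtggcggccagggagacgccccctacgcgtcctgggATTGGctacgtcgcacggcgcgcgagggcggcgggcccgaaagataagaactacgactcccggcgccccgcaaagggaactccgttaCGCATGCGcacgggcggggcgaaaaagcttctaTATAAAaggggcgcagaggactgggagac
HEXIM2: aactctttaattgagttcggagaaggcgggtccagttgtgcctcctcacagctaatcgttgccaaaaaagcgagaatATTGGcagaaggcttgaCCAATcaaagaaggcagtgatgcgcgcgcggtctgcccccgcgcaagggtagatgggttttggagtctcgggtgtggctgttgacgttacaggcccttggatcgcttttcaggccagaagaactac
CDK9: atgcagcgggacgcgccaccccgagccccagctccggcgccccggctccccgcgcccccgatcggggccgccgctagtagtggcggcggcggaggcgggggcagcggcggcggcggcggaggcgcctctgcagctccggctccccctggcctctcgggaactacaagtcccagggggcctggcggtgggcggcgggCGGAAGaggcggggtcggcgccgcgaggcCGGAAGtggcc

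The stretches are chr17:45148225-45148474 for HEXIM1, chr17:45161625-45161844 for HEXIM2 and chr9:127785798-127786033 for CDK9, all on the plus strand. For HEXIM1, 246 of the 250 bases are an exon of AC142472.1, a long non-coding RNA on the opposite strand. For HEXIM2 no exon is annotated in the stretch, which lies inside the annotated span of the gene. For CDK9 all 236 bases are coding in a longer annotated CDK9 transcript, and the microRNA genes MIR2861 and MIR3960 lie in them. RefSeq had 12 windows of 250 bases for the 7 genes, and the HEXIM2 window is 1 of 2. The motifs, searched on both strands and chosen after the sequences had been seen, were the E-box CACGTG, the TATA-box letters TATAAA, the box CCAAT, the ETS-type core CGGAAG, the cAMP response element TGACGTCA and the NRF1-type core GCATGCG. The window of HEXIM1 held TATAAA, which 10.7% of all 35116 windows hold, 29 bases before the start. It also held GCATGCG on both strands at overlapping places, a motif found in 3.39% of all windows, and so did a window of CCNT2 and a window of MEPCE. The HEXIM1 window and 1 window each of HEXIM2 and LARP7 held CCAAT at 2 places (32.0% of all windows). The CCNT2 window and 1 window each of CCNT1 and MEPCE held it at 1 place. CDK9 held CGGAAG at 2 places (16.5%), as did that window of CCNT1. The CCNT1 window also held CACGTG (6.34%), a motif that a window of MEPCE held too. That window of LARP7 held TGACGTCA (1.65%) 243 bases before the start. The other windows of HEXIM2, LARP7 and CCNT1 held none of the motifs. GC content was 82% for CDK9, against a median of 58% over all windows. A match is a description of the letters only.

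HEXIM1, the inhibitor that locks P-TEFb into the 7SK particle, had the largest change of the 7 genes. Its count was 4337 and 3955 with GNE987, against 999 (replicate 1) and 1972 (replicate 2) without. Scaled for library size by TMM, this was 285 and 287 CPM with GNE987 and 44.8 and 97.4 CPM without. Both treated libraries lay above both untreated ones, and the treated pair was nearly equal while the untreated pair differed 2.17-fold. The log2 fold change was 2.01 ± 0.37 (SE), a 4.02-fold rise (edgeR quasi-likelihood test, Benjamini-Hochberg adjusted p = 0.0056). Its 95% interval was 1.09 to 2.93. Without untreated replicate 2 the log2 fold change was 2.68 and without untreated replicate 1 it was 1.49, so the size rested on which untreated library was used. Without GNE987 replicate 1 it was 2.00 and without GNE987 replicate 2 it was 1.98. On the deposited FPKM scale, which is per gene length, HEXIM1 stood above 85.7% of the tested genes in untreated cells and above 96.1% with GNE987.

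HEXIM2, the paralog that can take the same place in the particle, was a low transcript here. It had 42 and 34 counts with GNE987 and 45 and 52 without. In CPM this was 2.76 and 2.46 with GNE987 and 2.02 and 2.57 without, so the groups overlapped. Its log2 fold change of 0.19 had a 95% interval from -0.62 to 1.00 (edgeR adjusted p = 0.618), and with library size alone the estimate was -0.18. A change was not detectable at this depth. Per length, HEXIM2 was at 1.27 ± 0.0972 FPKM with GNE987 and 1.11 ± 0.165 without (SD, n = 2), while HEXIM1 was at 78.4 ± 0.575 and 19.4 ± 9.80 FPKM.

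**Figure D1:**
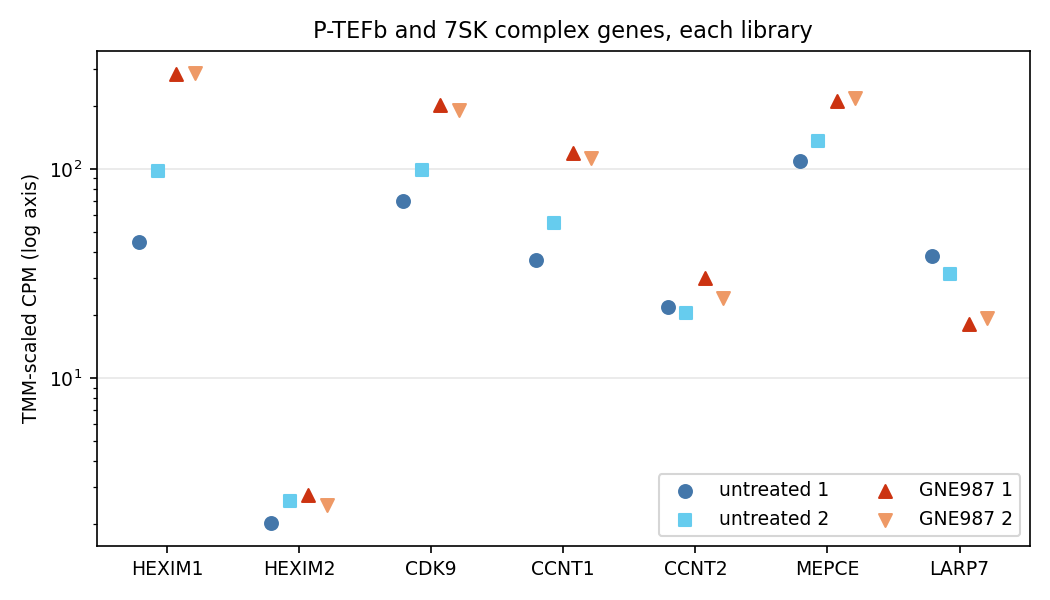
TMM-scaled CPM (log axis) of the 7 genes in each of the 4 libraries, 1 point per library. HEXIM1, CDK9, CCNT1 and MEPCE are higher in both GNE987 libraries, LARP7 is lower in both, and for HEXIM1 untreated replicate 2 (97.4 CPM) lies above untreated replicate 1 (44.8 CPM) and below the treated libraries.

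The kinase and its main cyclin rose together. CDK9 had 201 and 192 CPM with GNE987 and 70.0 and 99.0 CPM without, from 1560 to 3064 counts. Both treated libraries were higher than both untreated ones, by a log2 fold change of 1.22 ± 0.19 (edgeR adjusted p = 0.00359). CCNT1, which encodes cyclin T1, had 119 and 112 CPM with GNE987 and 36.6 and 54.9 CPM without. Here too the groups were apart, and the log2 fold change was 1.34 ± 0.21 (edgeR adjusted p = 0.00353). In both genes untreated replicate 2 was the higher of the untreated pair, 1.41-fold for CDK9 and 1.5-fold for CCNT1. Leaving untreated replicate 2 out gave log2 fold changes of 1.5 for CDK9 and 1.67 for CCNT1. Leaving untreated replicate 1 out gave 0.92 and 1.012, so CDK9 was then less than 2-fold higher.

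CCNT2, which encodes the alternative partner cyclin T2, had a smaller estimate. It had 30.0 and 24.2 CPM with GNE987 and 22.0 and 20.5 CPM without. The lower treated library was near the higher untreated one, though the groups did not overlap. The log2 fold change of 0.35 ± 0.15 had an interval from -0.04 to 0.74 and did not pass the threshold (edgeR adjusted p = 0.0878). Which side of the threshold it fell on depended on the scaling and on the filter on low counts. It passed with RLE factors (0.44, edgeR adjusted p = 0.0449) and with upper-quartile scaling (0.55, edgeR adjusted p = 0.0218). With a 10 CPM filter it passed as well (0.52, edgeR adjusted p = 0.0249), and with library size alone the estimate was -0.02. With DESeq2 it was 0.35 and did not pass (Wald test adjusted p = 0.208). The estimate was 0.34 without untreated replicate 1 and 0.32 without untreated replicate 2. It was 0.17 without GNE987 replicate 1 and 0.48 without GNE987 replicate 2. CCNT2 was the member for which untreated replicate 2 did not lie toward the treated libraries, being 0.936-fold of untreated replicate 1.

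The 2 RNA-binding partners of the 7SK core went in opposite directions. MEPCE, the methyltransferase that caps 7SK RNA, had 212 and 218 CPM with GNE987 and 109 and 136 CPM without. Both treated libraries were the higher ones, with a log2 fold change of 0.81 ± 0.15 (edgeR adjusted p = 0.0061). LARP7, the La-related protein that holds the 3′ end of 7SK RNA, had 18.1 and 19.4 CPM with GNE987 and 38.5 and 31.4 CPM without. Both treated libraries were the lower ones, and the log2 fold change was -0.90 ± 0.15 (edgeR adjusted p = 0.00454). LARP7 counts were 276 and 268 with GNE987 and 857 and 635 without, so counting error was small beside the change. Without GNE987 replicate 1 neither gene passed (edgeR adjusted p = 0.0548 for LARP7 and 0.0623 for MEPCE), and without GNE987 replicate 2 MEPCE did not (edgeR adjusted p = 0.0702).

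In all, 4 of the 7 genes rose and 1 fell, at an adjusted p below 0.05 in edgeR. Over all genes tested 34.4% rose and 37.2% fell, and 24.6% rose at least 2-fold, as HEXIM1, CDK9 and CCNT1 did. Changes were thus common among all genes, and a count of 5 changed genes of 7 is near the share over the whole table. The median log2 fold change of the 7 was 0.81, against -0.03 over all genes tested. Treated libraries were above both untreated ones in 5 genes and below both in 1, while over all genes these shares were 44.6% and 46.6%. The authors' deposited table lists the same 4 rising genes and LARP7 at an adjusted p below 0.05, where over all its rows 17.7% were listed as higher and 19.6% as lower. The authors' deposited table gives a log2 fold change of 2.01 for HEXIM1 and of -0.90 for LARP7. DESeq2 on the same counts gave these same values, so the deposited table is not separate evidence.

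**Figure D2:**
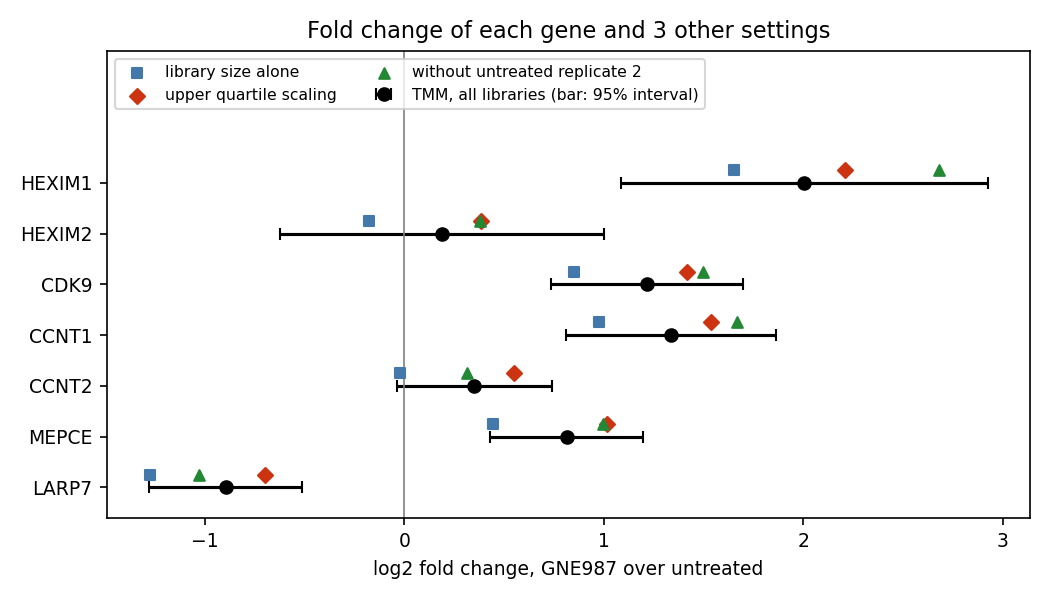
Log2 fold change, GNE987 over untreated, for each gene: black points with 95% intervals are the TMM fit on all 4 libraries, and coloured marks are 3 other settings. HEXIM1, CDK9, CCNT1 and MEPCE stay right of 0 and LARP7 left of 0 in all settings drawn, while CCNT2 and HEXIM2 fall below 0 with library size alone (-0.02 and -0.18).

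CPM is a share of each library's RNA, so fewer copies of a transcript per cell and more of the other RNA cannot be told apart. Scaling by library size alone gave a median of -0.41 over all genes, where TMM gave -0.03. Under library size alone HEXIM1 was at 1.65, CDK9 at 0.85, CCNT1 at 0.98, MEPCE at 0.45 and LARP7 at -1.27, and all 5 were still past the threshold.

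Ratios between members were also taken within each library, since such a ratio does not depend on the scaling. HEXIM1 was at 0.534 and 0.82 of the CDK9 level in the untreated libraries, in FPKM, and at 1.18 and 1.25 with GNE987. In FPKM the message of the inhibitor was thus below that of the kinase in both untreated libraries and above it in both treated ones. Which message is the higher depends on the gene lengths behind FPKM, while the fold between groups does not. The ratio of geometric means was 1.83-fold higher with GNE987. LARP7 was at 0.297 and 0.193 of MEPCE in untreated cells and at 0.0715 and 0.0745 with GNE987, 3.28-fold lower. CCNT2 was at 0.487 and 0.304 of CCNT1 without and at 0.205 and 0.175 with GNE987, which is 2.03-fold lower. HEXIM2 was at 0.0796 and 0.0466 of HEXIM1 without and at 0.0171 and 0.0152 with GNE987, 3.78-fold lower. In each of the 4 ratios the treated libraries were apart from the untreated ones, and untreated replicate 2 was the untreated library nearer to them. With 2 libraries against 2 the exact two-sided permutation test cannot go below p = 0.333, which all 4 ratios gave, so no ratio is shown to differ.

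**Figure D3:**
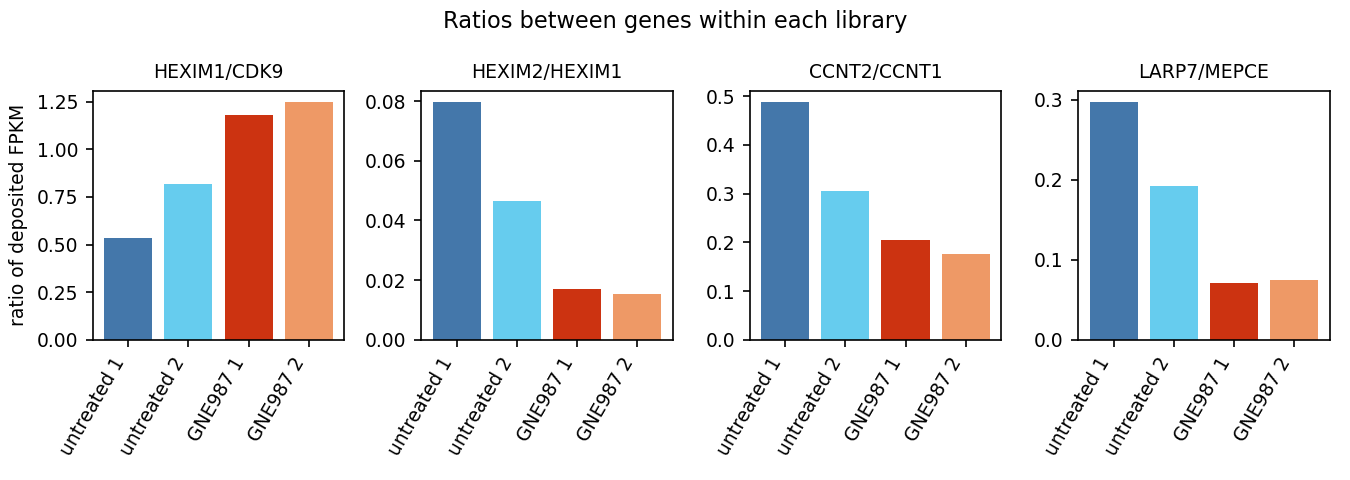
Ratios of deposited FPKM between 2 genes within each library, 1 bar per library from 0, in 4 panels. HEXIM1 over CDK9 passes 1 in both GNE987 libraries (1.18 and 1.25), and the other 3 ratios are lower there than in both untreated libraries.

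CCNT1 kept closely to CDK9. Their ratio in FPKM was 0.213 and 0.225 without GNE987 and 0.241 and 0.238 with it, a difference of 0.13 on the log2 scale. MEPCE went from 1.36 and 1.21 of the CDK9 level without GNE987 to 0.925 and 0.999 with it. These ratios to CDK9 were added after the data had been seen. By the order of mean FPKM in untreated cells, MEPCE (35.3 ± 4.94) and CDK9 (27.7 ± 6.18) were the highest, with HEXIM1 (19.4 ± 9.80) next. These stood in that order within each untreated library, and order between genes depends on the gene lengths behind FPKM. LARP7 (8.46 ± 1.39) and CCNT1 (6.10 ± 1.6) followed, with CCNT2 (2.31 ± 0.155) and HEXIM2 lowest. With GNE987 the order began with HEXIM1, then CDK9 (64.7 ± 2.05) and MEPCE (62.2 ± 1.41), which were apart by about their spread. CCNT1 (15.5 ± 0.606) then stood above LARP7 (4.54 ± 0.235), with CCNT2 at 2.95 ± 0.438 FPKM.

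Untreated replicate 2 stood at a like position, between untreated replicate 1 and the treated mean, in the 4 rising genes. It was 21.8% for HEXIM1, 22.9% for CDK9, 23.1% for CCNT1 and 25.9% for MEPCE in CPM, and 36.1% for LARP7. For the 6325 changed genes above, the quartiles of this position were 15.3% and 25.4%. The myeloid markers named above were also higher in untreated replicate 2 than in untreated replicate 1.

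Genes of closest likeness were sought over the 4 libraries among 8782 other genes of at least 10 CPM on average, by distance in centred log2 CPM. The 3 nearest to HEXIM1 were POR, PTTG1 and CNNM4, at distances from 0.0128 to 0.0438. POR, which encodes the electron donor of cytochrome P450 enzymes, had 290 and 294 CPM with GNE987 and 46.3 and 100.1 without. PTTG1, which encodes securin, had 538 and 554 CPM with GNE987 and 84.7 and 189 without. For CDK9 the nearest were CENPL, C6orf203 and HYLS1, at 0.0269 to 0.0297. CCNT1 ranked 182 from CDK9, at a distance of 0.143, and MEPCE ranked 1228. With only 4 libraries many genes share such a profile, so the list is a description.

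Each member was placed on GRCh38 with GENCODE 29. HEXIM1 (ENSG00000186834) lies on chromosome 17 from 45148502 to 45152101, a gene with 1 merged exon. HEXIM2 (ENSG00000168517) lies 8598 bases further, from 45160700 to 45170040 on the same strand, so neighbouring paralogs had a 4.02-fold and a 1.14-fold estimate. CDK9 (ENSG00000136807) lies on chromosome 9 from 127785679 to 127790787 and CCNT1 (ENSG00000129315) on chromosome 12 from 48688458 to 48716998. CCNT2 (ENSG00000082258) lies on chromosome 2 from 134918235 to 134959342. LARP7 (ENSG00000174720) lies on chromosome 4 from 112636964 to 112657592 and MEPCE (ENSG00000146834) on chromosome 7 from 100428790 to 100434126.

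HEXIM1, HEXIM2, CCNT2, LARP7 and MEPCE each lie close to, or overlap, a gene on the opposite strand, and values follow first for the 3 of these neighbours that passed the low-count filter beside HEXIM1, LARP7 and MEPCE. AC142472.1, the non-coding RNA that starts 31 bases before HEXIM1, had 2.17 and 2.03 CPM with GNE987 and 0.494 and 0.988 CPM without. It rose with HEXIM1, by 1.5 ± 0.46 on the log2 scale (edgeR adjusted p = 0.0311). ZGRF1, which encodes a helicase-like zinc finger protein and overlaps LARP7 by 32 bases, had 3.41 and 3.33 CPM with GNE987 and 14.7 and 13.0 CPM without. It fell with LARP7, by 2.04 ± 0.20 (edgeR adjusted p = 0.000893). ZCWPW1, a histone-reader gene that overlaps MEPCE by 203 bases, had 3.94 and 5.0 CPM with GNE987 and 1.17 and 2.62 CPM without (log2 fold change 1.24 ± 0.46, edgeR adjusted p = 0.053). The library kit does not mark the strand, so reads in shared bases cannot be assigned. The antisense transcripts CCNT2-AS1, which overlaps CCNT2 by 476 bases, and AC138150.1, which overlaps HEXIM1 by 1702 bases and HEXIM2 by 811, were too low to test. These and the other antisense transcripts over HEXIM2 and LARP7 were at most 0.797 CPM in any library. AC008105.3, the next gene beyond HEXIM2, had 3.28 and 5.65 CPM with GNE987 and 6.73 and 7.11 CPM without, and did not pass (edgeR adjusted p = 0.125).

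**Figure D4:**
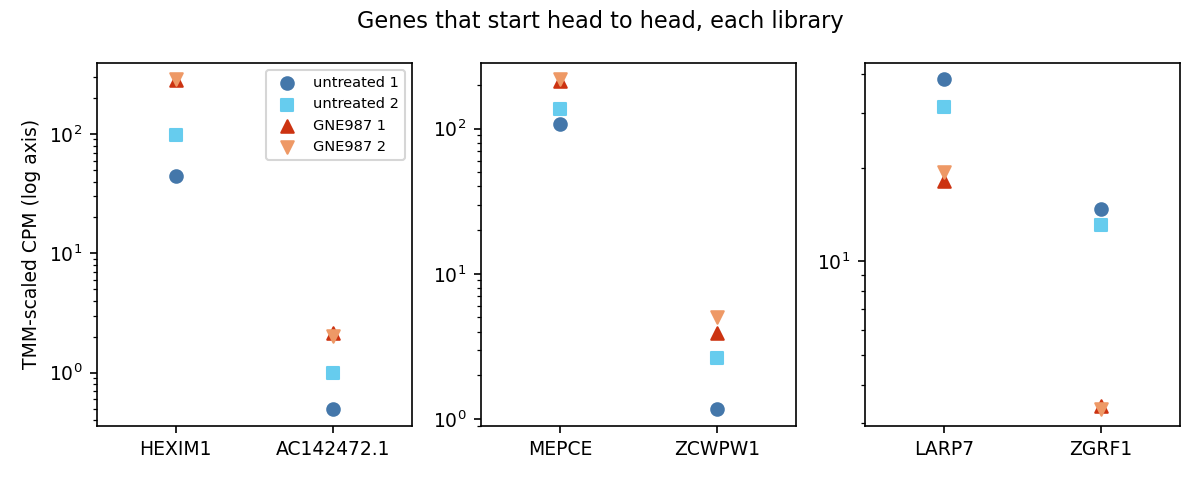
TMM-scaled CPM (log axes, each panel with its own range) of 3 members and of the transcript that starts next to them on the opposite strand and passed the low-count filter, 1 point per library. In each pair both genes have their treated libraries on the same side of the untreated ones, and ZCWPW1 did not pass the threshold (adjusted p = 0.053).

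Factors that bind the 7SK particle or release P-TEFb from it were mostly lower. Of 15 tested genes 9 fell, 2 rose and 4 did not pass, with a median of -0.53. Over all genes tested 37.2% fell and 34.4% rose, and the list was not tested against them. Transcripts of 4 hnRNP proteins, which take up 7SK RNA when HEXIM1 leaves it, fell. HNRNPA1 had 1103 and 1114 CPM with GNE987 and 2579 and 2237 CPM without (log2 fold change -1.12 ± 0.15, edgeR adjusted p = 0.00206). HNRNPA2B1 was at -0.75, HNRNPR at -0.94 and SYNCRIP, which encodes hnRNP Q, at -1.71. SRSF1, a splicing factor, fell by 2.32, while SRSF2, its relative, was at 0.12 (edgeR adjusted p = 0.401), or -0.25 with library size alone. The phosphatase genes PPM1A and PPM1G, whose products remove the activating phosphate of CDK9, fell by 1.36 and 0.53, and PPM1G did not pass with upper-quartile scaling (-0.34). The phosphatase genes PPM1B, at 0.05, and PPP1CA, at -0.35, did not pass (edgeR adjusted p = 0.857 and 0.0522). With library size alone PPP1CA was at -0.72 and passed (edgeR adjusted p = 0.00282). RBM7, which encodes an RNA-binding protein that can release P-TEFb, fell by 1.38, and DDX21, an RNA helicase gene, fell by 0.46 but did not pass with upper-quartile scaling. NUFIP1 was at -0.12 (edgeR adjusted p = 0.453), and at -0.49 with library size alone, where it passed (edgeR adjusted p = 0.0366).

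TRIM28 and JMJD6 were the rising genes of that list. TRIM28, which encodes a corepressor that brings the 7SK particle to promoters, had 2437 and 2604 CPM with GNE987 and 552 and 928 CPM without (1.77 ± 0.27, edgeR adjusted p = 0.0033). JMJD6, which encodes a hydroxylase linked to BET-dependent pause release, had 216 and 219 CPM with GNE987 and 40.3 and 80.3 CPM without (1.85 ± 0.33, edgeR adjusted p = 0.00513). Both had the pattern of HEXIM1, with untreated replicate 2 above untreated replicate 1.

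Among the other kinases of transcription and their cyclins 9 of 14 rose and 3 fell, with a median of 0.50. The shares over all genes tested were 34.4% and 37.2%. CDK7, the kinase that activates CDK9, was at 0.69 ± 0.15, while its assembly factor MNAT1 fell by 2.46 ± 0.17 (edgeR adjusted p = 0.00943 and 0.000379). With library size alone CDK7 was at 0.33 and did not pass (edgeR adjusted p = 0.112). Their partner cyclin CCNH was at -0.25 (edgeR adjusted p = 0.148), and at -0.63 with library size alone, where it passed (edgeR adjusted p = 0.0164). Of the Mediator kinase genes CDK19 rose by 1.25 and CDK8 was at 0.63, or at 0.26 with library size alone, where it did not pass (edgeR adjusted p = 0.176), while their cyclin CCNC fell by 0.63. CDK10 fell by 0.72. CDK12 and CDK13, which phosphorylate the polymerase tail during elongation, were at 0.38 and 0.37, but with library size alone at 0.01 and -0.01. Their cyclin CCNK rose by 1.08, and CCNL1 and CCNL2, cyclins linked to splicing, rose by 2.00 and 1.41. CDK11A, at 1.25, and CDK11B, at -0.02, are near-identical copies and their split of reads is uncertain. This list depended on the scaling: with library size alone 4 rose and 5 fell, with a median of 0.13.

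The elongation and pausing factors that P-TEFb works with moved in both directions. Of 21 tested genes 6 rose and 10 fell (median -0.20), against 34.4% and 37.2% over all genes tested. SUPT4H1, with 0, 0, 4 and 1 counts, was too low to test. AFF4, the scaffold of the super elongation complex that holds P-TEFb, rose by 1.26 ± 0.16, and its relative AFF1 was at -0.03 ± 0.14. ELL2, a subunit of that complex, was at 0.63, and at 0.26 with library size alone, where it did not pass (edgeR adjusted p = 0.334). SUPT5H, the pausing factor subunit that P-TEFb phosphorylates, rose by 1.56, and NELFE, an RNA-binding subunit of the negative elongation factor and also a P-TEFb substrate, fell by 0.90. Larger falls, chosen after their values were seen, were -4.01 for LEO1, -3.71 for EAF2, -2.61 for NELFA, -2.43 for AFF3 and -2.35 for NELFCD. The remaining rises were 1.48 for CTR9, 0.92 for SUPT6H and 0.44 for RTF1. With library size alone RTF1 was at 0.07 and did not pass. The median of this list was 0.001 with upper-quartile scaling.

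Among relatives of LARP7 and MEPCE 4 of 7 fell and 1 rose. LARP1, which binds messages of the translation machinery, fell by 1.16 ± 0.13 and LARP1B by 0.71, and LARP4, which binds poly(A) tails, rose by 0.83 ± 0.12. SSB, the La protein itself, was at -0.34 and BCDIN3D, an RNA methyltransferase related to MEPCE, at -0.74. These were close to the threshold (edgeR adjusted p = 0.0396 and 0.0477) and did not pass with RLE factors or upper-quartile scaling. LARP4B and LARP6 were at -0.07 and 0.07. With library size alone LARP4B was at -0.44 and passed (edgeR adjusted p = 0.0306). The lists named here were chosen with earlier results in view. No list was tested against all genes, of which 34.4% rose and 37.2% fell in edgeR.

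**Figure D5:**
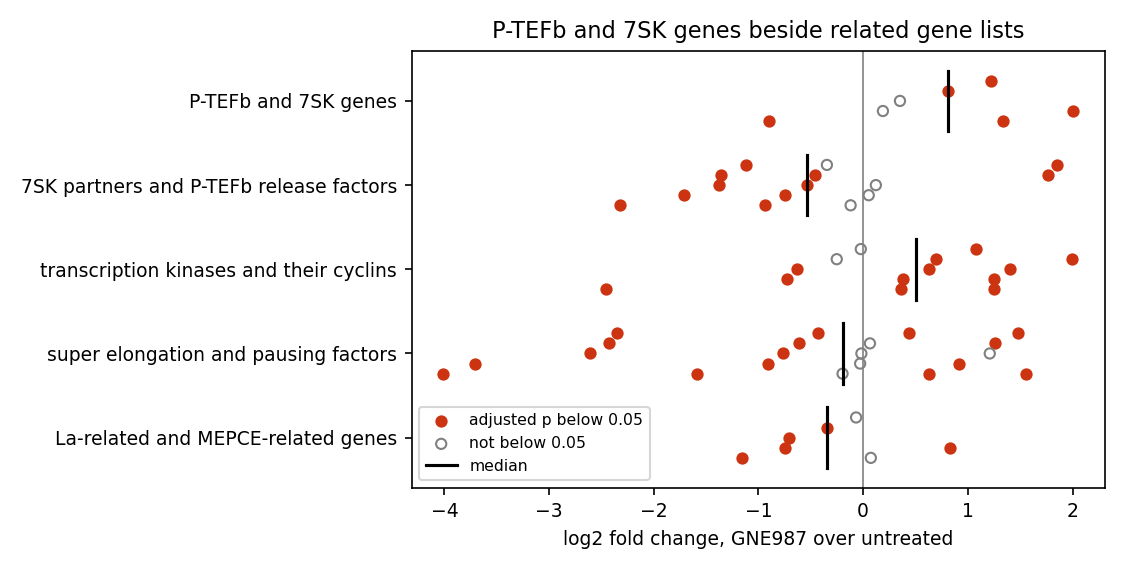
Log2 fold change, GNE987 over untreated, of the 7 genes and of 4 related lists, 1 point per tested gene (filled where the adjusted p is below 0.05) with the median as a bar. The 7SK partners lie mostly left of 0 (median -0.53) and the kinases and cyclins mostly right of it (median 0.50), while HEXIM1 (2.01) is the rightmost point of the P-TEFb and 7SK genes.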

How the data were processed

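Polyadenylated RNA of 4 Jurkat libraries was sequenced, 2 with GNE987 and 2 untreated. HISAT2 2.2.0 and hg38 stand in the submitters' processing notes. How reads were counted, with which annotation and whether by strand, is not given in the sources used here. Per gene, the authors deposited whole-number raw counts. They also deposited a normalized signal, equal to the count over a library-wide size factor (100% of values, within 0.01), and FPKM values in proportion to it. A log2 fold change and p-values were also deposited by the authors, from a test not stated. For the members these log2 fold changes equalled those of the DESeq2 fit run here, up to rounding (HEXIM1 2.0147 in both).

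Only raw counts were tested. The FPKM values served to compare levels between genes. The low-count filter was filterByExpr (minimum count 10, minimum total 15) in edgeR 4.0.16, under R 4.3.3. TMM scaling and the quasi-likelihood test followed, treated against untreated, with Benjamini-Hochberg adjustment over 15910 genes and a threshold of 0.05. The SE is the log2 fold change over the square root of F. Counts have no molecular identifiers, and 3 counts in a library equal 0.158 to 0.187 CPM of its total, which covers counting error only. The fit was tested on simulated data with the same spread in every library and few genes changed. Those settings differ from these data, so that test covers the code and not the error rate here.

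The members, lists and rule for named genes were chosen with earlier results of these data known. The rule takes all 7 members and allows any gene of 3 related lists, 5 elongation factors, overlapping and neighbouring transcripts and the 3 genes nearest HEXIM1 and CDK9 in profile. Elongation factors beyond those 5 were named outside the rule, after their values were seen. No protein sequences and no 7SK RNA value were used here. Alternatives were RLE, upper-quartile and library-size scaling, 2 other filters, DESeq2 1.42.0, robust estimation, a replicate block and each library left out. Promoter windows are from RefSeq (GRCh38.p14).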

Additional observations from a re-analysis of the deposited data

How the results depend on the processing

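CDK9, CCNT1, HEXIM1 and MEPCE stayed higher and LARP7 lower under every alternative run. Over 83 alternatives for single members, 72 kept the direction and the side of the threshold, 3 reversed, 5 passed newly and 3 no longer passed. With library size alone CCNT2 was at -0.0204 and HEXIM2 at -0.18, and of the transcription kinases and cyclins 4 were higher and 5 lower. HEXIM2 was at -0.0382 without untreated replicate 1 and at 0.38 without untreated replicate 2. Of the relatives of LARP7 and MEPCE 3 were called, 2 of them lower, with RLE scaling, with upper-quartile scaling, with a 10 CPM filter and with the replicate block. With 1 library left out, which assumes that the lone sample varies like the other group, all genes called ranged from 6306 (without GNE987 replicate 1) to 13341 (without untreated replicate 2), the higher ones from 2206 to 6816 and the lower ones from 4100 to 6525. In the same way members called higher ranged from 3 to 5 and lower from 0 to 1. The 7SK partners called ranged from 8 to 12, lower from 6 to 10. Kinases and cyclins called ranged from 5 to 13, higher from 3 to 9 and lower from 2 to 4. Elongation factors called ranged from 10 to 18, higher from 3 to 7 and lower from 6 to 11, and the relatives of LARP7 and MEPCE from 2 to 5, lower from 1 to 4. The causes were not tested. The deviations of same-numbered libraries had a correlation of -0.006. With 2 libraries a group this cannot show whether the numbers pair them. With the replicate block 9801 genes were called, with the members at 4 higher and 1 lower. HEXIM2 had too few reads for a value under the 10 CPM filter, and its depth limits what can be seen of it.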
